A study of Homo sapiens with 21 samples.

Results

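Antisense noncoding genes are transcribed from the strand opposite to another gene. The 171 described here are the rows of the deposited count table that carry the biotype antisense and have a mean count of at least 100 over the 21 libraries, out of 5583 antisense rows, of which 3696 had at least 1 count, and of 58735 rows in all. The mean count over all libraries chose the genes, that is, they were selected on these counts. Their levels are thus given as a description, and only their differences between doses were tested. The mean takes in the libraries of every dose, so a gene near the threshold may be listed because of a dose at which it is high. Coumarin, a plant benzopyrone, was given to cells labelled HepG2 for 6 h at 0.001, 0.01, 0.1, 1, 10 and 100 µM, and the control received the same medium with 0 µM. Coumarin was dissolved in DMEM, and all 7 groups were kept in serum-free DMEM, per the labels' protocols, and each group was 3 biological replicates, per the series' design text. The labels say nothing of separate days or cell stocks, so each p-value measures the spread between these cultures.

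A long noncoding RNA read from the strand opposite to a coding gene can act through the RNA itself, through the act of transcription, or not at all, and for most such genes no role is known. Many start close to a coding gene and run away from it, because promoters of mammalian genes often fire in both directions. Others lie wholly within an intron of the coding gene, or run into its end from the far side. A separate class is kept mainly for its introns: host genes of small nucleolar RNAs carry the snoRNA sequences in introns, and their spliced exons code for no long protein. Spliced RNA of such hosts often carries a terminal oligopyrimidine start, like ribosomal protein mRNAs, and is broken down when ribosomes read it.

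Start regions were taken from RefSeq (GRCh38.p14), as windows of 300 bases that hold 250 before and 50 after a gene's start, and 103 of the 171 genes had one. The first 3 windows shown are those of 3 of the 5 snoRNA hosts among the 171, of which ZFAS1 and SNHG7 had the smallest p-values at 100 µM. Capitals mark the letters TATANAA on the gene's own strand, which start 31 bases before the start in ZFAS1 and 30 in SNHG7 and in SNHG12.
ZFAS1 (chr20:49278392-49278691, plus strand): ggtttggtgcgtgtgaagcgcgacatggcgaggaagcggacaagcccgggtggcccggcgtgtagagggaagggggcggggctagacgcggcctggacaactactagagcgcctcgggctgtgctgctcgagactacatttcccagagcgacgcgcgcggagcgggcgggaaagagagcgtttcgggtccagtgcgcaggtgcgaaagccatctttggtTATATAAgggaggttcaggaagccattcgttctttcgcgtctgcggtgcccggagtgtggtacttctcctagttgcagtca
SNHG7 (chr9:136728135-136728434, minus strand): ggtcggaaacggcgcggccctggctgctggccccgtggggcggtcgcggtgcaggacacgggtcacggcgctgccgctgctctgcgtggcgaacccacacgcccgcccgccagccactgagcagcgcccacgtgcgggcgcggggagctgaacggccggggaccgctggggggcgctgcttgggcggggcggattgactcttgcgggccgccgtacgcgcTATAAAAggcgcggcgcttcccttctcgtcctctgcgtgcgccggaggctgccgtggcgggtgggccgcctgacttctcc
SNHG12 (chr1:28581824-28582123, minus strand): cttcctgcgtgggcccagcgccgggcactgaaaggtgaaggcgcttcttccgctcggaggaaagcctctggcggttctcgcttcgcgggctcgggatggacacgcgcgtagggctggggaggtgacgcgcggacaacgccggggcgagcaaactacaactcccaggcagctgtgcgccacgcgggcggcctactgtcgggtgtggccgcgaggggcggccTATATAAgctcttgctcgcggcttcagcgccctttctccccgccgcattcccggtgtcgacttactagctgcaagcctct
These 3 were the only windows among the 103 with TATANAA in the 50 bases before the start, 2.91% against 1.77% of all 34943 windows. The windows of the other hosts, SNHG10 and SNHG21, held no TATANAA on their own strand. SNHG21 was called higher at 100 µM, and SNHG12 was not. The motif was chosen after the sequences were seen, and the match is a description, not a site.

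The next window is that of WNT5A-AS1, whose counts and those of WNT5A were both lower at 100 µM. Its capitals mark the 189 bases that it shares with the RefSeq window of WNT5A on the minus strand, chr3:55487257-55487556.
WNT5A-AS1 (chr3:55487368-55487667, plus strand): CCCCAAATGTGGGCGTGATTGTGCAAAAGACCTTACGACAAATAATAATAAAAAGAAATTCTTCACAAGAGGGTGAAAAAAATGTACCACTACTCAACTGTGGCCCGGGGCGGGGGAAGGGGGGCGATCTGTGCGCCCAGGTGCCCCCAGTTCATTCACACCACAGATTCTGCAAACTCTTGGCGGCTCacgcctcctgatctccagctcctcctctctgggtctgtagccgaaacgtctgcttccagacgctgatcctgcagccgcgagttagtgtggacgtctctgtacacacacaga
The RefSeq starts of both genes thus lie in opposite directions within 1 stretch of sequence, whereas the gene model used for the counts places WNT5A-AS1 inside the first part of a longer WNT5A. Over the 103 genes, 48 windows (46.6%) overlapped a window of the opposite strand, against 16.3% of all windows. Their median number of CpG dinucleotides was 24, against 14 in all windows, and their median G+C was 64.0%, against 58.7%. The genes were chosen by the biotype antisense and by count, and all windows were matched for neither. These differences therefore only describe the selected genes.

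The last window, of KRT7-AS, is shown as a start within the body of another gene. It holds 6 CpG, in capitals, against a median of 24 in the 103 windows.
KRT7-AS (chr12:52247399-52247698, minus strand): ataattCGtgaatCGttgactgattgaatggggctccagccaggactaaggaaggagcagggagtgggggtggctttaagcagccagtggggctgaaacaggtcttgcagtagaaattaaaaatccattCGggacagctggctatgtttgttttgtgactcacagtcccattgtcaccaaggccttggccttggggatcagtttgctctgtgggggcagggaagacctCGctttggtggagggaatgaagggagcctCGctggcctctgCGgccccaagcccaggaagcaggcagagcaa
The motif TGATGNAA, on either strand, was in 1 of the 103 windows (0.971%), against 3.62% of all windows. It does not overlap TATANAA.

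The libraries held 27984517 to 43704155 counts. The 171 genes took 0.144% to 0.167% of the counts of a library, and 3 counts were worth 0.0686 to 0.107 CPM (counts scaled by library size). The label HepG2, a hepatoblastoma line, was checked against 18 hepatocyte genes. Of these, 5 (albumin among them) had no count in any library and only FOXA1 reached 1 CPM, at 12.0 ± 0.69 CPM (SD over 21 libraries). Of 5 genes of simple epithelium, KRT8 stood at 2325 ± 90, KRT7 at 1212 ± 52 and KRT18 at 898 ± 48 CPM, while EPCAM had no count and KRT19 had 1 count in all. Of 6 fibroblast and stromal genes 5 reached 1 CPM, COL3A1 at 936 ± 28 CPM and COL1A1 at 60.8 ± 5.0 CPM among them, and COL1A2 had 1 count in all. KRT8 and KRT18 are also keratins of hepatocytes, but the hepatocyte genes go against the label, so the cells are called cells labelled HepG2 here, and no other name is given to them.

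How reads were assigned matters for genes that lie across one another, and the labels do not say whether counting used strand. The counts themselves bear on it. Of 18 protein-coding genes whose exons lie wholly under exons of opposite-strand genes, 17 had no count in any library and the last, CIDEB, had 1 in all. HYI, ZNF593 and SFT2D3 were among those with none. None of the 18 had a mean count of at least 20, against 52.1% of 11089 protein-coding genes with no shared exon base. Of 228 protein-coding genes wholly under same-strand exons 157 had no count, the highest total of the others was 98, and none had a mean count of at least 20. Of the 11089 genes with no shared exon base, 2245 also had no count in any library. The 18 genes, then, received almost no reads over exons shared across strands, and whether the overlying genes received such reads was not tested. Where the antisense genes too received no reads over shared exons, their counts came from bases that they share with no other exon. Over those bases, reads of unspliced RNA from the opposite strand cannot be told apart from their own.

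**Figure D1:**
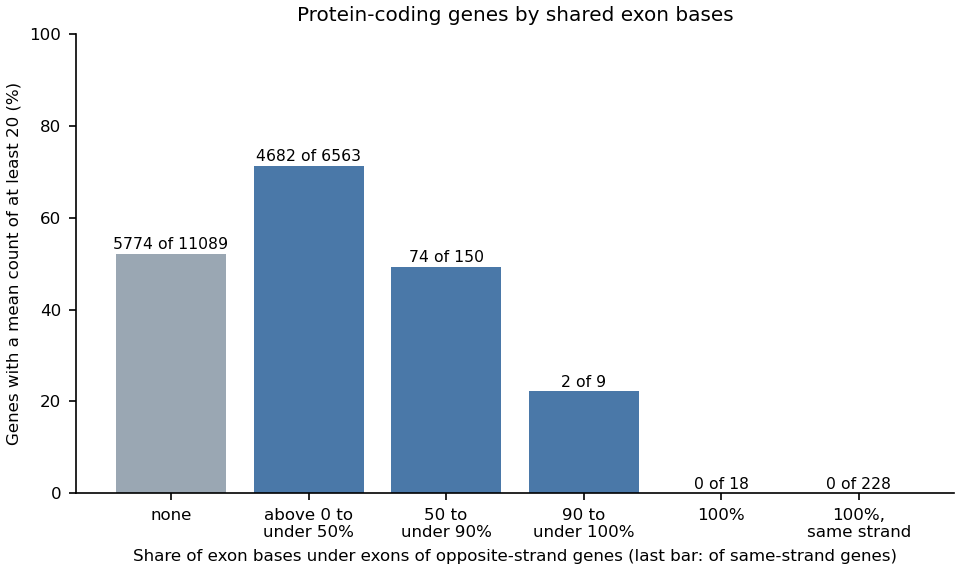
Share of protein-coding genes with a mean count of at least 20 (y axis, percent), by the share of their exon bases under exons of opposite-strand genes (x axis), with the number of genes above each bar; the last bar holds genes wholly under exons of their own strand. The share is 52.1% with no shared base, 22.2% (2 of 9) at 90 to under 100%, and 0 of 18 at 100%.

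By this measure 130 of the 171 antisense genes had some exon bases under opposite-strand exons, but only 3 had at least 50% there. At least 50% of the exon bases lay outside every opposite-strand gene in 93, and in introns of opposite-strand genes in 62. Exon bases of 23 were shared with a gene of the same strand. These places matter for SNHG21, whose unshared part was 285 of 1053 exon bases, and for ZFAS1, with 1190 of 2243.

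The 171 genes had a median mean count of 181, with a range of 100 to 3378. Per length, their median was 2.28 FPKM (fragments per kilobase of merged exons, scaled by library size), with a range of 0.398 to 66.9 FPKM. The median was 2.90 FPKM for the 130 lincRNA rows and 7.64 FPKM for the 10343 protein-coding rows that passed the same count threshold. Their median length was 2602 exon bases in 3 exon blocks, and 25 had a single exon block. Just inside the threshold lay AC103739.1, AC018653.3, AL161421.1, AC064807.1 and AC027228.2, with mean counts of 101.4, 101.0, 100.6, 100.3 and 100.1. Just outside it lay GNAS-AS1, AC139887.2, AC015849.3, ZNF337-AS1 and AC010642.2, with 99.1, 99.0, 98.3, 97.3 and 97.2.

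The most counted of these genes was FGD5-AS1 (ENSG00000225733, GRCh38 chromosome 3, 14920347 to 14948424, minus strand), at 97.0 ± 3.4 CPM over the 21 libraries. Its partner FGD5, a guanine nucleotide exchange factor of endothelium, was listed at 0 FPKM. SNHG7 followed at 86.0 ± 8.0 CPM and ZFAS1 at 49.7 ± 5.5 CPM, both snoRNA hosts. HCG18, a noncoding gene of the HLA region, stood at 48.6 ± 2.1 CPM. AC097478.1 stood at 36.9 ± 3.2 CPM. SNHG12 had 36.0 ± 2.4 and GABPB1-AS1 35.8 ± 5.2 CPM, PSMA3-AS1 27.5 ± 2.8, THAP9-AS1 26.8 ± 1.6 and NNT-AS1 26.2 ± 1.9 CPM. ZFAS1 and HCG18, the genes from AC097478.1 to GABPB1-AS1, and those from PSMA3-AS1 to NNT-AS1 differed from their neighbours by less than the larger SD. Per length the order changed: AC099850.3, a transcript of 321 bases inside PRR11, led at 66.9 FPKM, before ZFAS1 at 22.7, AC006329.1 at 21.8, AC005288.1 at 21.5 and SNHG7 at 20.3 FPKM.

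An opposite-strand partner was found for 166 of the 171 genes. It was the coding gene with the longest overlap in 154 and the nearest coding gene starting within 1000 bases in 11, and a gene of another kind in 1. The 5 without one were AC006329.1, AL034346.1, AC124798.1, AL513165.1 and MINCR. In 69 pairs the genes were head to head, with a median distance between starts of 581 bases. In 42 they were tail to tail, in 39 the antisense gene lay inside its partner, and in 16 the partner lay inside the antisense gene. In head-to-head pairs the median was 2.71 FPKM for antisense genes and 9.40 FPKM for partners. It was 2.28 against 6.07 FPKM tail to tail and 2.28 against 8.29 FPKM for antisense genes inside their partners. Where the partner lay inside the antisense gene the order was the other way, with 1.40 FPKM for antisense genes and 0.586 FPKM for partners. Per kilobase of unshared exon, with all counts taken to lie there, the antisense gene was above its partner in 50 of the 162 pairs where both could be had. THAP9-AS1 was such a case, at 7.40 FPKM against 0.564 FPKM for THAP9, a transposase-derived gene.

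Of the 171, 79 were named for another gene in the table, and 64 of these had that gene as their partner. In the other 15 another gene overlapped more. ELF3-AS1 was set with RNPEP, and SLFNL1-AS1 with SCMH1.

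At 100 µM coumarin 14 of the 171 antisense genes were higher than at 0 µM and 3 were lower. ZFAS1, SNHG7 and SLFNL1-AS1 had the smallest p-values among those that rose, and WNT5A-AS1, KRT7-AS and RASSF8-AS1 were the 3 that fell. The changes were small: over the 171 genes the log2 fold change ran from −0.46 to 0.56. In these bulk libraries fewer cells with an RNA and less RNA per cell cannot be told apart. The calls are edgeR quasi-likelihood tests at an adjusted p under 0.05 over all 16196 genes tested, and all 171 were among these.

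The 17 calls were 9.94% of the antisense genes, against 8.58% of all genes tested and 10.1% of the 8755 genes in the same range of mean counts, so the share itself was near the background. The direction of the calls was less even. Higher calls made up 8.19% of the 171, against 3.77% of all genes, 4.99% in that range of counts and 4.81% of protein-coding genes past the same threshold. Lower calls made up 1.75%, against 4.82% of all genes and 5.15% in that range. Among the 130 lincRNA rows 12.3% were called, 7.69% higher and 4.62% lower. All 3 libraries at 100 µM lay above all 3 at 0 µM for 39 of the 171 (22.8%, against 13.1% of all genes) and below them for 10 (5.85%, against 13.9%). The median log2 fold change of the 171 was 0.07, with 115 above 0, and that of all genes tested was 0.00247. The number of higher calls depended on the fit: with an offset for gene length 11 genes were called, 8 of them higher. The calls lost with that offset were all higher ones. These shares and medians are descriptions of the list, and no test of the list was made.

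**Figure D2:**
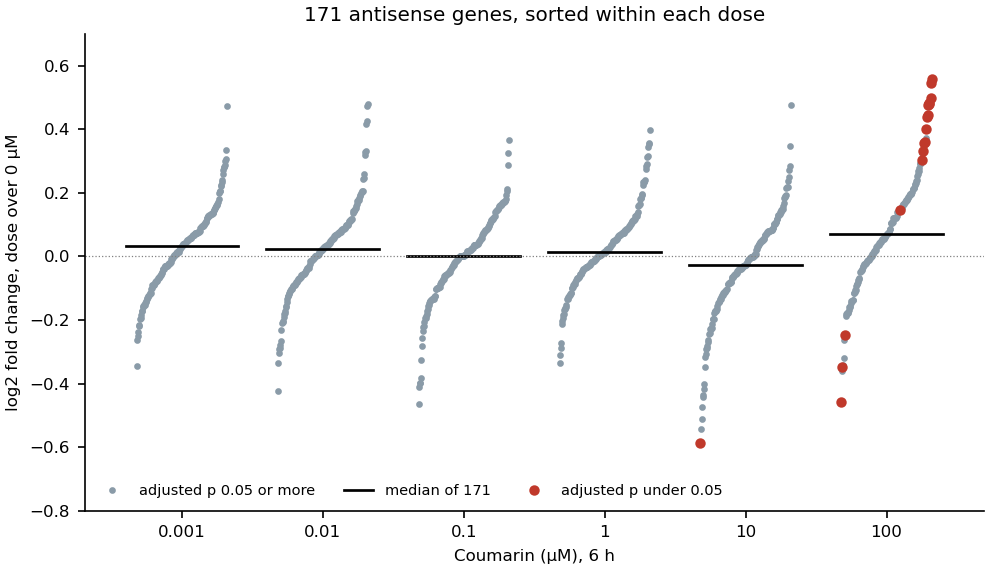
log2 fold change of each of the 171 antisense genes at each dose over 0 µM (y axis), sorted within a dose (x axis, coumarin in µM); bars are medians, and filled red points have an adjusted p under 0.05. The 6 doses share the same 3 control libraries, the medians lie between −0.03 at 10 µM and 0.07 at 100 µM, and the called genes are 1 at 10 µM and 17 at 100 µM.

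ZFAS1 (ENSG00000177410, chromosome 20, 49278178 to 49295738, plus strand) hosts box C/D snoRNAs in its introns. It had 61.3, 60.8 and 61.9 CPM at 100 µM, against 44.7, 44.7 and 45.9 CPM at 0 µM. The groups lay far apart, and ZFAS1 rose by a log2 fold change of 0.44 ± 0.05 (SE; edgeR quasi-likelihood, adjusted p = 1.6e-07). Its means at 0.001, 0.01, 0.1, 1 and 10 µM were 47.4, 48.3, 46.4, 48.3 and 51.2 CPM. ZNFX1, the helicase gene whose start it overlaps on the other strand, had 36.6, 35.6 and 36.4 CPM at 100 µM, against 35.1, 34.9 and 33.6 CPM at 0 µM. That difference did not pass the test (log2 fold change 0.07 ± 0.05, edgeR adjusted p = 0.447).

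SNHG7 (ENSG00000233016, chromosome 9, 136721366 to 136728184, minus strand), also a snoRNA host, had 104, 104 and 102 CPM at 100 µM, against 80.6, 78.7 and 82.3 CPM at 0 µM. Again the groups did not overlap, and SNHG7 rose by 0.36 ± 0.04 on the log2 scale (edgeR adjusted p = 7.44e-07). SNHG21, a further host, had 4.16, 4.38 and 4.10 CPM at 100 µM, against 3.08, 2.84 and 3.00 CPM at 0 µM. It rose by 0.50 ± 0.14 (edgeR adjusted p = 0.0244).

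The other snoRNA hosts among the 171 did not pass. SNHG10 had 8.91, 9.64 and 8.90 CPM at 100 µM, against 7.90, 7.25 and 7.21 CPM at 0 µM (log2 fold change 0.29 ± 0.10, edgeR adjusted p = 0.0667). SNHG12 had 41.9, 39.7 and 39.5 CPM, against 35.2, 38.7 and 35.1 CPM (0.15 ± 0.05, adjusted p = 0.0724). In both, every library at 100 µM lay above every library at 0 µM. Of the 5 hosts 3 were called higher and none lower, beside 3.77% higher over all genes and 4.99% in the same range of counts. Their median log2 fold change was 0.36, beside 0.07 over the 171 and 0.00247 over all genes. No test of this group was made.

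Noncoding genes with a known role were listed by name, 31 of 34 names being in the table. The names were chosen with earlier results of these data known, so the shares below describe the list and are not a test. The shares over all genes were not matched to it for counts. Of these, 10 were among the 171 and 1, ZFAS1, was called. Of the 21 in the table that were not among the 171, 15 were tested, 6 were called higher and 1 lower, beside 3.77% higher and 4.82% lower over all genes tested. The 6 were GAS5, SNHG1, SNHG15, LRRC75A-AS1 and EPB41L4A-AS1, which all host snoRNAs, and ATF4, a coding gene of the stress response that the list also held. GAS5 rose by 0.28 ± 0.04 and SNHG1 by 0.21 ± 0.05 on the log2 scale (edgeR adjusted p = 1.44e-05 and 0.00386). OIP5-AS1, a cytoplasmic noncoding RNA, fell by 0.19 (SE 0.04, edgeR adjusted p = 0.00211).

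SLFNL1-AS1 (ENSG00000281207, chromosome 1, 41014590 to 41043890, plus strand) spans the whole of SLFNL1 and runs into the end of SCMH1, a Polycomb group gene. It had 18.1, 19.8 and 18.9 CPM at 100 µM, against 12.0, 14.2 and 13.0 CPM at 0 µM. It rose by 0.54 ± 0.10 on the log2 scale (edgeR adjusted p = 0.00052). At 10 µM it stood at 9.31, 12.5 and 9.86 CPM, lower than at 0 µM by 0.31 without passing the test (adjusted p = 0.221). SLFNL1 had 17.0, 15.0 and 15.2 CPM at 100 µM, against 10.2, 13.2 and 11.8 CPM at 0 µM, and rose too (0.43 ± 0.13, edgeR adjusted p = 0.0365). SCMH1 showed no such difference, with 29.2, 29.5 and 29.8 CPM at 100 µM, against 26.9, 30.4 and 29.7 CPM at 0 µM (0.03 ± 0.05, adjusted p = 0.80). SLFNL1-AS1 has 49.3% of its exon bases in introns of opposite-strand genes and 29.7% under their exons.

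The other 10 that rose lie beside coding genes of varied roles. AL050341.2 starts close to ZMPSTE24, the protease gene that matures lamin A, and runs away from it. It had 4.32, 4.12 and 4.04 CPM at 100 µM, against 3.25, 2.45 and 3.21 CPM at 0 µM (log2 fold change 0.48 ± 0.13, edgeR adjusted p = 0.015), and shares no base with an opposite-strand gene. HCG18 had the smallest change called, with 52.9, 50.7 and 54.4 CPM, against 46.9, 48.2 and 47.8 CPM (0.14 ± 0.04, adjusted p = 0.0281). AC009065.8 lies in an intron of ECI1, a mitochondrial enoyl-CoA isomerase gene, with 3.56, 3.44 and 4.02 CPM, against 2.59, 2.52 and 2.77 CPM (0.48 ± 0.14, adjusted p = 0.0281). ECI1 itself had 99.1, 93.0 and 97.2 CPM at 100 µM, against 94.1, 92.8 and 99.4 CPM at 0 µM, so the host gene's level was near that of the control (adjusted p = 0.887).

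NIFK-AS1 ends in NIFK, the gene of a nucleolar protein that binds Ki-67, and rose by 0.40 ± 0.12 (edgeR adjusted p = 0.0318). HOXC13-AS, head to head with HOXC13, had 6.07, 5.94 and 6.11 CPM at 100 µM, against 5.07, 4.48 and 4.53 CPM at 0 µM (0.36 ± 0.11, adjusted p = 0.0372). HOXC13, a homeobox gene, had 26.1, 24.9 and 24.2 CPM, against 26.7, 24.9 and 28.8 CPM. FAM201A rose by 0.30 ± 0.09 (adjusted p = 0.0405) and FBXL19-AS1 by 0.33 ± 0.10 (adjusted p = 0.0421). The last 3 were MZF1-AS1, FOXP4-AS1 and AL161421.1, named or placed beside the zinc finger gene MZF1, the forkhead gene FOXP4 and FNDC3A. They rose by 0.56 ± 0.18, 0.44 ± 0.14 and 0.48 ± 0.15 (edgeR adjusted p = 0.0437, 0.0442 and 0.0465). AL161421.1 passed the count threshold only through the libraries at 100 µM, so its call is a description. FAM201A and its partner ANKRD18A belong to duplicated families, so their counts are uncertain.

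Of these 14 genes and the 3 that fell, only ZFAS1, SNHG7 and SLFNL1-AS1 were called whichever library was left out. Without replicate 1 of 100 µM these 3 alone of the 17 were called. Without replicate 1 or 2 of 0 µM, 7 and 5 of the 17 were, and without replicate 2 or 3 of 100 µM, 7 and 8. Without replicate 1 of 0.1 µM all 17 remained, among 26 called.

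**Figure D3:**
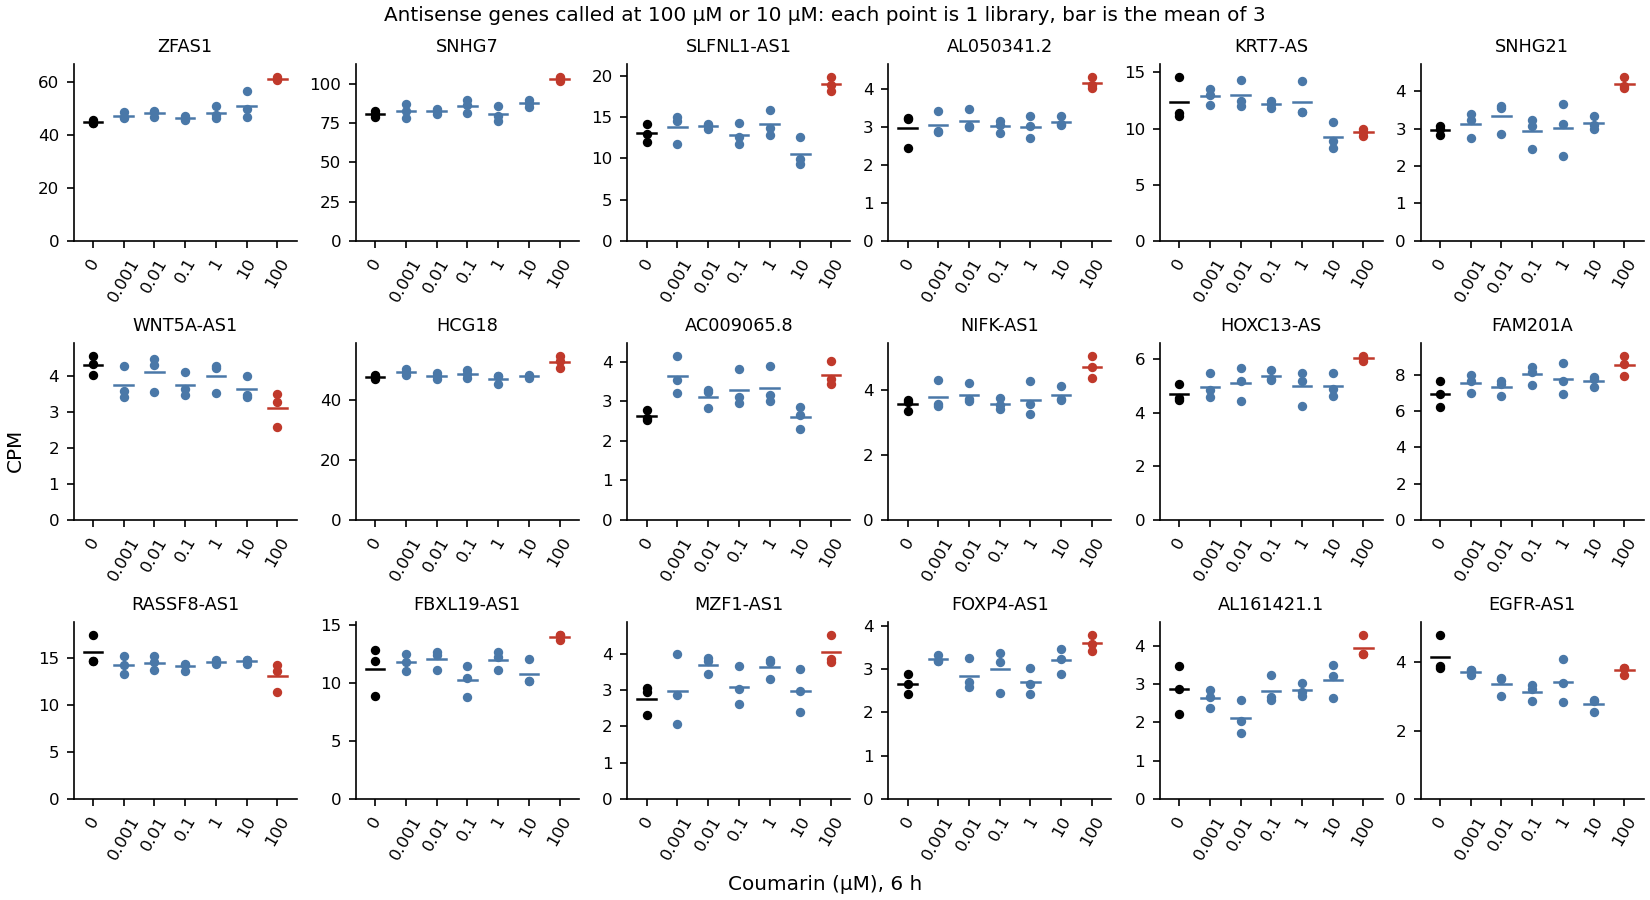
CPM (y axis, from 0, on each gene's own scale) by coumarin dose (x axis, µM) for the 17 antisense genes called at 100 µM and for EGFR-AS1, called at 10 µM; points are libraries and bars the means of 3. At 100 µM ZFAS1 lies at 60.8 to 61.9 CPM, against 44.7 to 45.9 CPM at 0 µM, while KRT7-AS lies at 9.31 to 9.95, against 11.2 to 14.6 CPM.

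WNT5A-AS1 (ENSG00000244586, chromosome 3, 55487699 to 55488308, plus strand) lies opposite WNT5A, the gene of a secreted ligand of non-canonical Wnt signalling. It had 2.57, 3.27 and 3.49 CPM at 100 µM, against 4.02, 4.55 and 4.33 CPM at 0 µM, and fell by 0.46 on the log2 scale (SE 0.13, edgeR adjusted p = 0.0272). WNT5A had 87.9, 93.0 and 91.9 CPM at 100 µM, against 145, 150 and 146 CPM at 0 µM, and fell by 0.69 (SE 0.04, adjusted p = 3.29e-14). At 10 µM both differed by −0.24, which passed for WNT5A (edgeR adjusted p = 0.0035) and not for WNT5A-AS1 (0.474). All of the exon bases of WNT5A-AS1 lie in an intron of WNT5A, so the part of unspliced WNT5A RNA in its counts was not tested.

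RASSF8-AS1, head to head with the Ras-association gene RASSF8, had 13.6, 11.4 and 14.3 CPM at 100 µM, against 14.7, 17.4 and 14.7 CPM at 0 µM. It fell by 0.25 (SE 0.08, edgeR adjusted p = 0.0413), and 88.0% of its exon bases lie outside opposite-strand genes. Its call was lost when the 6 libraries compared were fitted alone. RASSF8 had 123, 127 and 127 CPM, against 145, 148 and 134 CPM, and fell by 0.18 (SE 0.05, adjusted p = 0.0182). The call of RASSF8 was lost without replicate 1 or 2 of 0 µM or replicate 1 of 100 µM, while that of WNT5A was kept whichever library was left out.

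KRT7-AS (ENSG00000257671, chromosome 12, 52245048 to 52247448, minus strand) lies inside KRT7, a keratin gene of simple epithelia. It had 9.70, 9.95 and 9.31 CPM at 100 µM, against 11.3, 14.6 and 11.2 CPM at 0 µM, and fell by 0.35 (SE 0.10, edgeR adjusted p = 0.024). At 10 µM it was at 8.28, 10.6 and 8.89 CPM, a difference of −0.42 that did not pass (adjusted p = 0.0591). The libraries at 10 µM were thus as low as those at 100 µM, while the means from 0.001 to 1 µM were 12.2 to 13.0 CPM, beside 12.4 CPM at 0 µM. KRT7 had 1175, 1113 and 1130 CPM at 100 µM, against 1203, 1113 and 1248 CPM at 0 µM, with no difference past the test (−0.06 ± 0.04, adjusted p = 0.43). Of the exon bases of KRT7-AS 83.3% lie in introns of KRT7.

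At 10 µM 1 of the 171 was called (0.585%), against 0.321% of all genes tested, of which 0.241% were higher and 0.0803% lower. It was EGFR-AS1, which lies inside the gene of the epidermal growth factor receptor. EGFR-AS1 had 2.88, 2.90 and 2.54 CPM at 10 µM, against 3.88, 4.80 and 3.83 CPM at 0 µM, and fell by 0.59 on the log2 scale (SE 0.13, edgeR adjusted p = 0.0386). At 100 µM it was at 3.83, 3.64 and 3.84 CPM, nearer to the control (−0.14 ± 0.13, adjusted p = 0.561). The call was lost without replicate 2 of 0 µM and without each replicate of 10 µM. EGFR at 10 µM differed from 0 µM by −0.14 without passing (edgeR adjusted p = 0.158), and at 100 µM it fell by 0.14 (SE 0.04, adjusted p = 0.0354), a call lost without replicate 2 or 3 of 0 µM, replicate 3 of 10 µM or any replicate of 100 µM. EGFR-AS1 has 93.4% of its exon bases in EGFR introns.

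At 0.001, 0.01, 0.1 and 1 µM none of the 171 and none of the 16196 genes was called by edgeR, and DESeq2 called none of the 171. At an unadjusted p under 0.05, edgeR counted 8, 17, 9 and 13 of the 171 at these doses. Those are 4.68%, 9.94%, 5.26% and 7.60%, against 8.21%, 8.74%, 6.09% and 3.76% of all genes. Tested over the 7 groups at once, 5 of the 171 differed (2.92%, against 4.65% of all genes): ZFAS1, SNHG7, SLFNL1-AS1, KRT7-AS and AL161421.1. A slope over log10 dose among the 6 treated groups was called for 6 (3.51%, against 4.45%). It was upward for ZFAS1, SNHG7, AL161421.1 and ENTPD1-AS1, and downward for KRT7-AS and DLGAP1-AS1.

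AL161421.1 had the steepest slope, 0.13 ± 0.03 log2 units per 10-fold dose (edgeR adjusted p = 0.00136). Its means were 2.63, 2.11, 2.83, 2.84, 3.11 and 3.95 CPM from 0.001 to 100 µM. Its mean count over all libraries, 100.6, lay just inside the threshold of 100, and it was highest at 100 µM. Without the libraries at 100 µM its mean count would lie below that threshold, so it is listed only through that dose. Its slope and its calls at 100 µM and over all groups thus only describe a gene chosen through that dose. KRT7-AS had a slope of −0.10 ± 0.02 (edgeR adjusted p = 0.00012). DLGAP1-AS1, inside the nearly silent synaptic scaffold gene DLGAP1, had means of 17.2, 16.3, 16.6, 16.1, 14.3 and 14.4 CPM, beside 15.5 CPM at 0 µM, and a slope of −0.05 ± 0.01 (adjusted p = 0.00366). ENTPD1-AS1 had 0.05 ± 0.01 (adjusted p = 0.0418). Neither DLGAP1-AS1 nor ENTPD1-AS1 differed from 0 µM at 100 µM in the test.

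Of the antisense genes, 6 lie in HOX clusters, whose coding genes set position along the body axis. HOTAIR, read from the HOXC cluster and known to bind chromatin regulators, had 12.3, 12.6 and 12.4 CPM at 100 µM, against 13.5, 14.1 and 14.0 CPM at 0 µM. Its libraries at 100 µM all lay below those at 0 µM, but the difference did not pass (−0.16 ± 0.07, edgeR adjusted p = 0.188). HOTTIP and HOTAIRM1, from the ends of the HOXA cluster, stood at 6.37 ± 0.52 and 2.99 ± 0.28 CPM at 100 µM, against 5.85 ± 0.10 and 2.87 ± 0.30 CPM at 0 µM (SD, n = 3 each). Of the 6, HOXC13-AS alone was called, and their median log2 fold change was 0.08.

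Opposite ribosomal protein genes lay 4 of the antisense genes, namely AC010761.1, AC008429.1, AC245140.2 and AP003352.1, beside RPL23A, RPL26L1, RPL10 and RPL30. None was called, and their median log2 fold change was 0.03. The levels of partner and antisense gene lay far apart here: with all counts taken to lie on unshared exon, AC245140.2 had 3.44 FPKM and RPL10 had 509 FPKM. The 4 genes with names that end in DT, for divergent transcript, had no call either, with a median of 0.18.

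A tested partner was at hand for 149 of the 171, with 147 distinct partners. Of the 17 antisense genes called at 100 µM 15 had one, and in 2 of these pairs, WNT5A-AS1 with WNT5A and RASSF8-AS1 with RASSF8, both genes were called and in the same direction. SLFNL1-AS1 is counted here with SCMH1, by the longest overlap, although SLFNL1, which it spans, was also called higher. No pair by that rule was called in opposite directions, but 2 pairs are too few to read a direction from. Beside these 2 of 15, partners were called for 17 of all 149 (11.4%). That compares with 8.58% of all genes tested and 11.6% of protein-coding genes past the same count threshold, so the partners' share was near the background. Of these 17 partners, 12 were lower and 5 higher, beside 4.82% lower and 3.77% higher over all genes tested. Of the 1199 protein-coding genes called past that threshold 497 were higher, so lower calls were the more frequent there too. For 15 of the 17 partners the antisense gene was not called, and in 11 of the 15 its fold change had the same sign as the partner's.

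The partner that changed most among these was that of AC015712.2, which runs into ALDH1A3, the gene of a retinaldehyde dehydrogenase. ALDH1A3 had 36.6, 38.9 and 37.7 CPM at 100 µM, against 49.9, 47.7 and 49.0 CPM at 0 µM, and fell by 0.37 (SE 0.05, edgeR adjusted p = 5.06e-07). AC015712.2 had 4.16, 3.67 and 3.20 CPM, against 4.38, 5.04 and 4.33 CPM, which did not pass (−0.32 ± 0.13, adjusted p = 0.129). MBNL1, a splicing regulator gene, fell by 0.29 (adjusted p = 0.000455), beside −0.18 for MBNL1-AS1. SLC25A25, a mitochondrial ATP-Mg carrier gene, rose by 0.30 ± 0.05 (adjusted p = 0.000263), while SLC25A25-AS1, with 89.6% of its exon bases outside, was at −0.01. ANKRD11, a chromatin regulator gene, rose by 0.26 (adjusted p = 9.74e-06), beside 0.19 for AC137932.1 in its intron. GALNT7 fell by 0.21 (adjusted p = 0.00627), while AC105285.1, head to head with it, was at 0.29 and did not pass (adjusted p = 0.218).

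ELF3, an epithelial ETS factor gene, is overlapped by ELF3-AS1 over 2519 bases. ELF3 had 15.0, 13.8 and 13.7 CPM at 100 µM, against 25.3, 24.2 and 25.7 CPM at 0 µM, and fell by 0.83 (SE 0.07, edgeR adjusted p = 1.35e-10). ELF3-AS1 had 2.37, 3.27 and 2.56 CPM, against 3.42, 3.29 and 3.86 CPM, and did not pass (−0.36 ± 0.15, adjusted p = 0.14). ZNF213, a zinc finger gene that ZNF213-AS1 overlaps less than it does ZNF205, rose by 0.37 ± 0.08 (edgeR adjusted p = 0.0028), beside 0.37 ± 0.12 for ZNF213-AS1, which did not pass (adjusted p = 0.0538).

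Across the 149 pairs the Spearman correlation of the log2 fold changes at 100 µM was 0.323, and 65.1% of pairs had the same sign. Where under 50% of the antisense gene's exon bases lay outside opposite-strand genes, the correlation was 0.528 over 68 pairs. It was 0.159 over the 81 pairs with at least 50% outside. By arrangement it was 0.440 tail to tail, 0.411 inside the partner, 0.268 head to head and 0.0604 where the partner lay inside. All 3626 overlapping opposite-strand pairs gave 0.121, and the 1451 of them with both mean counts at least 100 gave 0.228. These correlations describe genes that share the same 6 libraries, and the difference between the groups of pairs was not tested. The antisense exons in the first group lie mostly over introns of the partner, and the part of unspliced partner RNA in their counts was not tested.

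**Figure D4:**
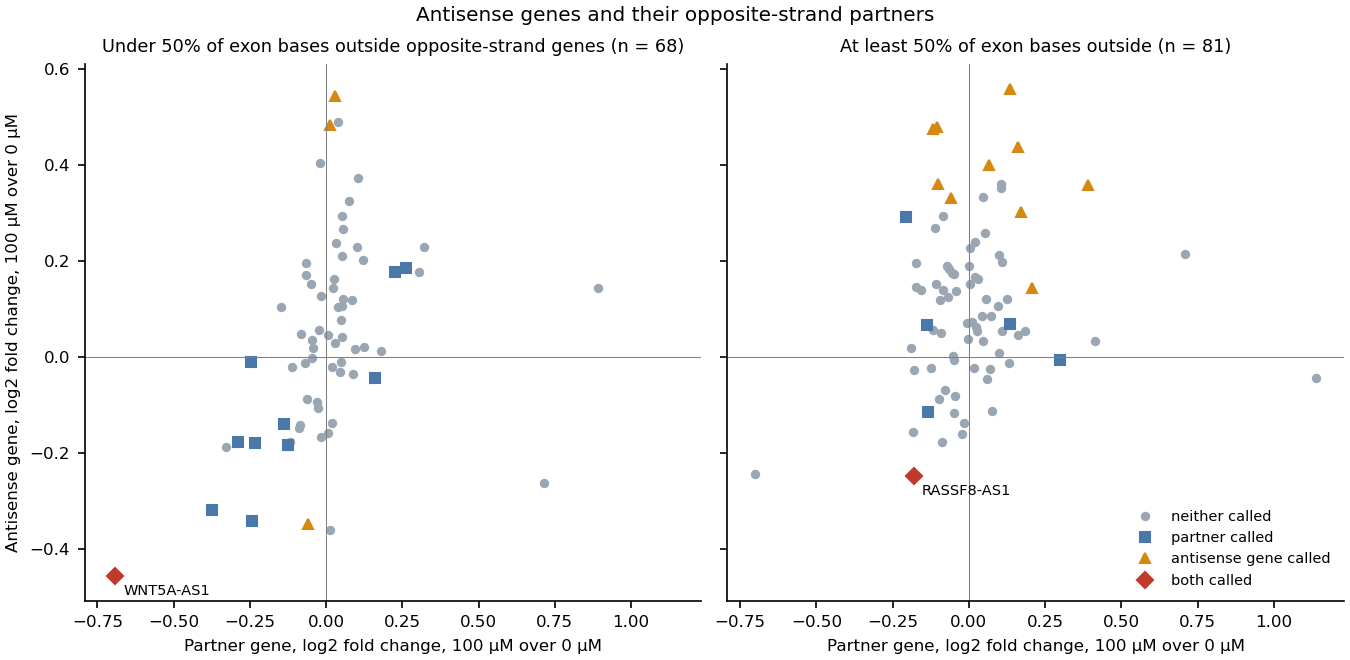
log2 fold change at 100 µM over 0 µM of each antisense gene (y axis) against that of its opposite-strand partner (x axis), for 68 pairs with under 50% of the antisense exon bases outside opposite-strand genes (left) and 81 pairs with at least 50% outside (right). Symbols show which gene of a pair was called; the Spearman correlations are 0.528 and 0.159, and WNT5A-AS1 and RASSF8-AS1 are the pairs with both genes called.

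The ratio of an antisense gene to its partner was tested in the same libraries with limma. At 100 µM 1 of 138 pairs was called (0.725%), against 0.827% of all 3626 opposite-strand pairs. It was AL359915.2, head to head with WARS2, the gene of the mitochondrial tryptophanyl-tRNA synthetase. AL359915.2 had 11.1, 11.2 and 10.6 CPM at 100 µM, against 9.25, 9.63 and 9.92 CPM at 0 µM, and WARS2 had 17.6, 18.9 and 19.4 CPM, against 21.2, 22.5 and 19.4 CPM. The log2 ratio rose by 0.37 ± 0.08 (limma, adjusted p = 0.0421), although neither gene was called alone. No ratio was called without replicate 1 or 2 of 0 µM, 0.001 µM or 1 µM, replicate 2 or 3 of 0.1 µM, replicate 1 of 10 µM, or any replicate of 0.01 µM or 100 µM, which is 15 of the 21 libraries left out singly. The next was SLFNL1-AS1 to SCMH1, which rose by 0.51 and did not pass (limma, adjusted p = 0.0548). Over the 7 groups none of the 138 ratios was called, against 0.138% of all pairs, and 19 (13.8%) had an unadjusted limma p under 0.05, against 11.4% of all pairs.

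Libraries of 1 dose differed from one another for many of the antisense genes together, a pattern chosen after the values were seen. At 10 µM, 88 of the 171 had their lowest value in replicate 1 (51.5%, against 35.0% of all genes tested), and at 1 µM 84 had their highest in replicate 1 (49.1%, against 33.3%). At 0 µM replicate 1 was lowest for 72 (42.1%, against 30.9%). A single axis held 23.7% of the within-dose variance of the 171 on the log2 scale, against 11.4% for all genes. Such a share depends on the number of genes and on their counts, and the sets were not matched for either. GABPB1-AS1, with 17179 exon bases, showed the differences between libraries plainly: it had 22.0, 33.2 and 31.2 CPM at 10 µM, against 31.1, 42.4 and 36.7 CPM at 0 µM. Its difference at 100 µM did not pass (0.17 ± 0.15, edgeR adjusted p = 0.555).

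MALAT1 and NEAT1, long noncoding RNAs kept in the nucleus, differed between the same libraries. MALAT1 had 311, 242 and 232 CPM in the 3 libraries at 1 µM, and 205, 225 and 220 CPM at 10 µM, against 234, 293 and 242 CPM at 0 µM. In each of the 7 doses the library with the highest median deviation of the antisense genes was also the one with the most MALAT1. The part of these differences between libraries in the calls was not tested beyond leaving out each library in turn. At 100 µM the 3 libraries lay close together, with 235, 255 and 241 CPM of MALAT1. NEAT1 had 832, 815 and 833 CPM at 100 µM, against 627, 761 and 679 CPM at 0 µM, so all 3 libraries at 100 µM lay above the control, where 14 of the antisense genes were called higher. The difference in NEAT1 did not pass the test (log2 fold change 0.26 ± 0.15, edgeR adjusted p = 0.324), nor did that in MALAT1 (−0.07 ± 0.16, adjusted p = 0.837), and their part in the calls was not tested.

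**Figure D5:**
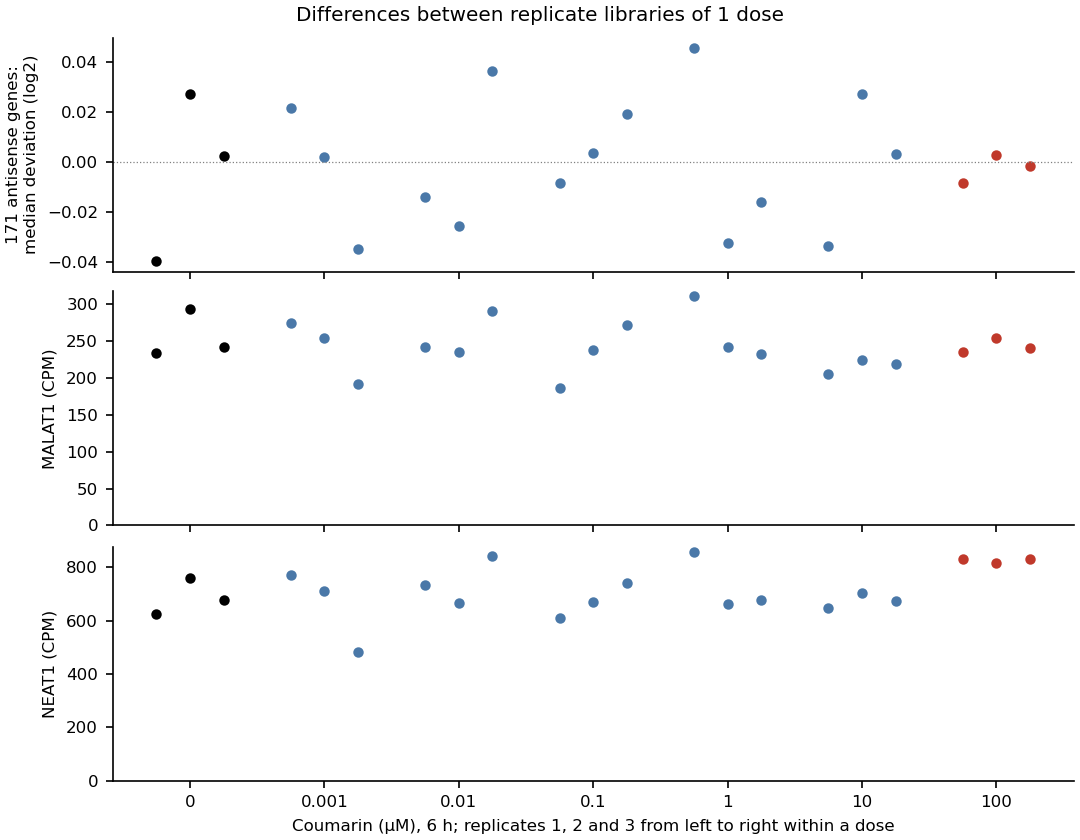
Differences between the 3 libraries of each dose (x axis, coumarin in µM, replicates 1, 2 and 3 side by side): median over the 171 antisense genes of the deviation from the dose mean on the log2 scale (top), and CPM of MALAT1 (middle) and NEAT1 (bottom). In each dose the library highest in the top panel is also highest for MALAT1, for example replicate 1 at 1 µM with 311 CPM.

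Among the 171 the pooled within-dose SD on the log2 scale ran from 0.0353 for HCG18 to 0.277 for AC135178.3, with a median of 0.144. Genes whose differences did not pass are not shown to be unchanged.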

How the data were processed

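Libraries were made from polyadenylated RNA (poly(dT) beads, SmartScribe reverse transcriptase), per the labels' protocols. The deposited counts are whole reads per gene with no normalization, and the deposited FPKM are the authors' values per kilobase of gene length, scaled by library size. Per the submitters' processing notes the tools were HISAT2 and DESeq2 and the build GRCh38, with no order stated. Which program counted the reads, and whether by strand, is not given in the sources used here. All 58735 gene models had the same ends and strand in GENCODE 29, whose exons gave the shared and unshared bases.

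Libraries were grouped by label, 3 for each of 7 doses. Genes kept by filterByExpr (16196) were fitted with edgeR 4.0.16 (TMM, glmQLFit with robust estimation, glmQLFTest) in 1 model of all 21 libraries, with Benjamini-Hochberg adjustment over all of them and a threshold of 0.05. CPM use TMM library sizes. Fold changes are log2, and their SE is the fold change over the root of F. Ratios of 3626 overlapping opposite-strand pairs were tested with limma 3.58.1 (log2 CPM, prior count 2). The partner was the overlapping opposite-strand coding gene with the longest overlap, else a gene of another biotype, else the coding gene starting within 1000 bases. Genes named are those called, the 10 highest by CPM and 5 by FPKM, 5 on each side of the count threshold, and the named lists. Called partners, GABPB1-AS1's libraries, MALAT1, NEAT1, SLFNL1, ZNFX1, ELF3 and ZNF213 were added after their values were seen. The genes and lists were chosen with earlier results of these data known. Alternatives were DESeq2 1.42.0, its size factors, other filters and count minimums, limma on FPKM, a gene length offset, other partners, a replicate block, the 6 libraries compared alone and leaving out each library. The non-robust estimate was added after seeing the data. The tests were checked on simulated counts. Same-numbered libraries deviated together no more than others, and the main fit did not pair them by number. The limit of 3 counts covers counting error only.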

Additional observations from a re-analysis of the deposited data

How the results depend on the processing

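At 100 µM 17 antisense genes were called. A gene length offset left 11, 8 of them higher, and the calls it lost were all higher ones. A minimum mean count of 200 left 8 of fewer genes. Leaving out 1 library gave 3 to 26 calls. At 10 µM, where 1 was called, DESeq2, the replicate block and the gene length offset gave 2 each and no filter on low counts gave 4. Both limma fits on log2(FPKM + 1) and log2(FPKM + 0.1), the 6 libraries alone and the minimum of 200 gave 0 there, and leaving out 1 library gave 0 to 2. Over the 7 groups, where 5 were called, DESeq2 gave 11 and no filter gave 17, and leaving out 1 library gave 4 to 9, with 8 or 9 without replicate 3 of 0 µM, 1 of 0.001 µM, 1 or 3 of 0.1 µM, 3 of 1 µM, or 2 or 3 of 10 µM. The slope gave 5 to 7 calls without 1 library. The 1 ratio called at 100 µM became 0 under the replicate block and 2 with the most counted partner, and 0 to 2 without 1 library. Over the 7 groups ratios gave 0 to 1 without 1 library. The causes were not tested. From 0.001 to 1 µM no setting run gave a call.

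Replicate numbers are shared across doses in the labels. Deviations of same-numbered libraries correlated by −0.095 to 0.0751 (63 pairs), and those of other libraries by −0.110 to 0.104 (126 pairs). No shared deviation was seen, and the numbers are used here only as names. Whether same-numbered libraries were handled together cannot be told from these values. The replicate block gave 15 calls at 100 µM, 14 of them among the 17 (RASSF8-AS1, FOXP4-AS1 and AL161421.1 were not), 5 over the 7 groups and 6 for the slope. Of the values for single genes under the alternatives, none was reversed. Low counts limit these genes: at 3 CPM a library held about the count minimum of the rule, and differences that were small beside the spread between libraries may have been missed.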
